A study of Homo sapiens with 6 samples.

Results

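Rows of the mitochondrial genome were followed across 6 poly(A) RNA libraries of KYSE70. This established human line derives from a squamous carcinoma of the esophagus. Members were the rows of the expression table whose name begins with MT- or J01415., which gave 28 of 48644 rows. Of these, 9 carry a gene name and 19 carry only a J01415 number. No table used here pairs a J01415 number with a gene, so these rows are given by number only and no gene identity is assigned to them. MT-RNR1, MT-RNR2, MT-ND4, MT-ND4L, MT-ATP6 and MT-CO3 are not analysed here. Levels are log2(RPKM + 1), where RPKM is a read count scaled by gene length and by library size. A level is therefore already per length, and differences between levels are on that log2 scale.

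The cells stably carried a Tet-On hairpin construct, which expresses a short hairpin RNA when doxycycline is present. The hairpin was directed against SOX2 in one line (shSOX2) and against TP63 in the other (shTP63). Each line had 1 library without doxycycline (day 0) and 2 libraries after 4 days of doxycycline at 50 ng/ml (day 4). The libraries are numbered in parentheses in their titles, and these numbers (2 at day 0, 2 and 1 at day 4) were read as replicate numbers, although they may distinguish hairpin sequences. No library with a non-targeting hairpin or with doxycycline alone is in the comparison, so the hairpin, the drug and the time in culture cannot be told apart. Nothing states that the libraries came from separate cultures, and p-values then measure only the spread between these libraries. Where values are listed for a line, the order is day 0, day 4 number 2, day 4 number 1.

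The human mitochondrial genome is a small circle that encodes core subunits of respiratory chain complexes I, III, IV and V, together with the rRNAs and tRNAs that translate them. Both strands are transcribed into long precursors by the RNA polymerase POLRMT with the factors TFAM and TFB2M, and the precursors are cut at the tRNAs that lie between the other genes. The released mRNAs receive short poly(A) tails from the polymerase MTPAP, are stabilised by LRPPRC with SLIRP and are degraded by PNPT1 with the helicase SUPV3L1. In the GENCODE release 29 annotation the circle holds 37 genes, of which 13 encode proteins, 22 encode tRNAs and 2 encode rRNAs. Of the 13 protein-coding genes, 12 belong to the heavy strand transcription unit and only MT-ND6 to the light strand unit.

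The tail is part of the coding message in several of these mRNAs, and it is also what oligo(dT) beads bind in a poly(A) library. The last 30 bases of 6 named members are printed below from GENCODE release 29 transcripts, 5′ to 3′ as transcribed, because they show which messages need a tail to complete a stop codon. Capitals mark the bases of the last codon that the genome encodes.
MT-ND1: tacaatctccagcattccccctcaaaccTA
MT-ND2: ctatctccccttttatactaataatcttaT
MT-CYB: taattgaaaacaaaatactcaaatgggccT
MT-CO1: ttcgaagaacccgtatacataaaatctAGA
MT-ND5: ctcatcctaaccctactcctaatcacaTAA
MT-ND6: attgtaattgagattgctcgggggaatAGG
MT-ND1 ends in TA and MT-ND2, MT-CYB and MT-ND3 end in a single T, so that 4 of the 9 named members need added adenines for a TAA codon. The other 5, MT-CO1, MT-CO2, MT-ATP8, MT-ND5 and MT-ND6, encode a full last codon. Both classes had lower medians in the shTP63 libraries. Without a full last codon (4 members) the median level was 10.06, 9.92 and 9.78 in shSOX2 and 7.59, 7.61 and 7.64 in shTP63. With a full last codon (5 members) it was 10.69, 10.52 and 10.31 in shSOX2 and 8.40, 7.81 and 8.18 in shTP63. The last codons of MT-CO1 and MT-ND6 are AGA and AGG.

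Some features of the libraries touch these results. The 26 highest values of each library were the same 26 numbers, with a shared maximum of 13.36, as quantile normalization produces. A level at the top of the table therefore stands for a rank, and depth is unknown. The uninduced shTP63 library stood apart in detection, with 16167 rows above 0 where the other 5 had 21530 to 23509, and with 56 genes of the tested set at 0 where the others had 0 to 5. Epithelial markers fit the labelled cell type in part: KRT5 was at 8.39 to 11.01 and KRT6A at 6.58 to 10.31, whereas KRT14 did not exceed 2.70 and KRT17 did not exceed 1.83. The columnar marker CDX2 and the T cell marker CD3E were at 0 in every library, the fibroblast, leukocyte and endothelial markers DCN, LUM, PTPRC and CDH5 were close to 0 (at most 0.041), and the fibroblast collagen COL1A1 was at 1.49 to 2.68. The endothelial marker VWF was at 0.22 to 0.28 in shSOX2 and 0.38 to 0.86 in shTP63, CD14 of leukocytes reached 0.47, and the columnar markers MUC2, VIL1 and TFF3 reached 0.15, 0.048 and 0.041. The part of other cell types in the results was not tested. The hairpin targets read 6.25, 5.65 and 4.67 for SOX2 in the shSOX2 line and 3.99, 2.26 and 2.11 for TP63 in the shTP63 line.

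Among the members, 10 rows were abundant in every library and the other 18 were scarce. The abundant rows were 8 named mRNAs and the unnamed rows J01415.24 and J01415.4, and none of their values was under 7.35. No value of the other 18 exceeded 4.11. In the shSOX2 line J01415.24 was the highest row of the whole table in all 3 libraries and J01415.4 was the next, and 6 or 7 of the 10 highest rows were members. In the shTP63 line 2 or 3 of the 10 highest rows were members. All 10 abundant rows stayed among the 100 highest rows of every library.

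**Figure D1:**
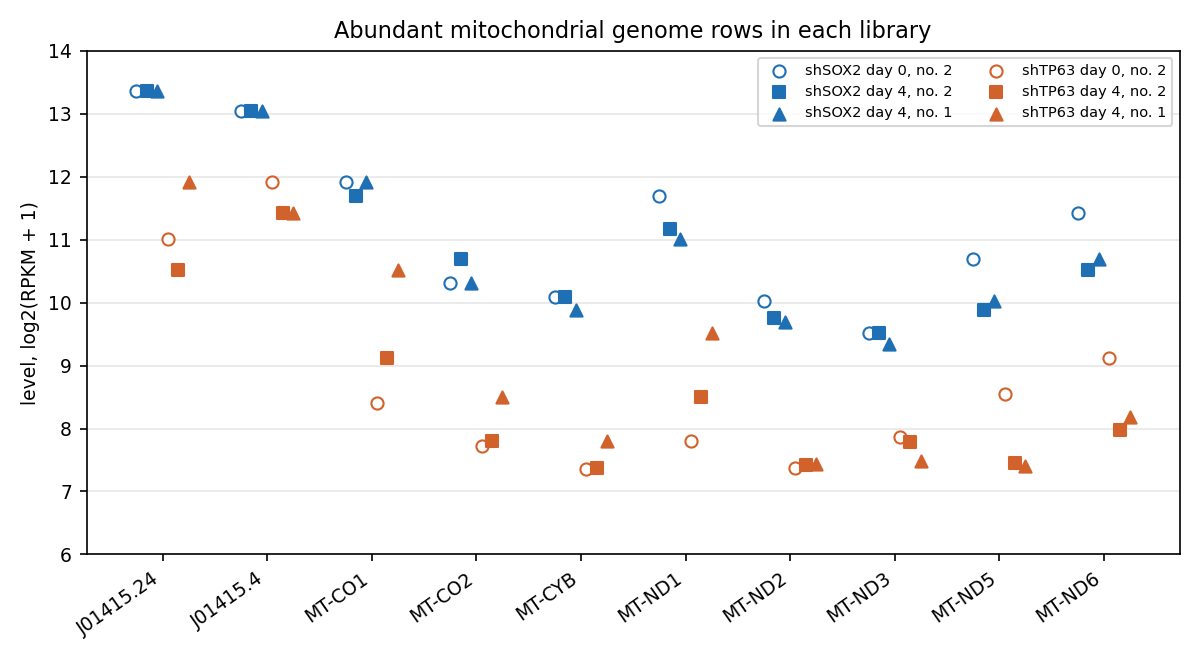
Level of each of the 10 abundant mitochondrial genome rows in each library, as log2(RPKM + 1) on the vertical axis, which starts above 0. Blue points are shSOX2 and orange points shTP63, open circles are day 0, and squares and triangles are day 4 libraries number 2 and 1. For every row the 3 shTP63 points lie below the 3 shSOX2 points.

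Summed over the 28 members, the share of the linear RPKM of all rows was 20.8%, 18.8% and 18.8% in shSOX2 and 4.92%, 3.81% and 6.13% in shTP63. All 3 shSOX2 shares were above all 3 shTP63 shares. The 9 named mRNAs made up 9.43%, 7.41% and 7.39% in shSOX2 and 1.36%, 1.27% and 2.16% in shTP63. J01415.24 and J01415.4 together made up 11.4% in each shSOX2 library and 3.56%, 2.54% and 3.97% in shTP63. The equal values of these 2 rows in shSOX2 follow from their holding the first and second rank there, because quantile normalization gives a rank the same value in every library.

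**Figure D2:**
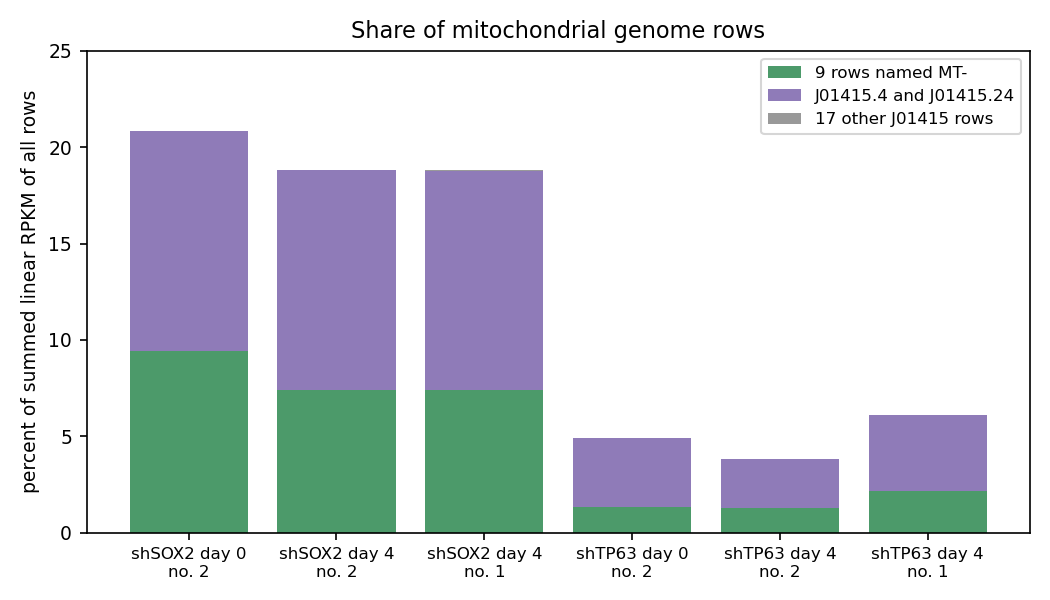
Stacked bars from 0 give the percent of the summed linear RPKM of each library held by the 9 rows named MT-, by J01415.4 and J01415.24, and by the 17 other J01415 rows, which are too low to be seen. The shSOX2 bars reach 18.8% to 20.8% and the shTP63 bars 3.81% to 6.13%.

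The question put first was whether the lines differ after induction, since this is the only comparison with 2 libraries on each side. Most of the abundant mitochondrial genome rows were lower in induced shTP63 than in induced shSOX2, among them mRNAs of complexes I, III and IV. The test was limma on the 10536 genes whose linear RPKM averaged 1 or more over the 6 libraries, among them 17 of the 28 members, with Benjamini-Hochberg adjustment and a call at an adjusted p under 0.05. Of the 10 abundant rows, 8 were called lower and 0 higher, the exceptions being MT-CO1 and J01415.24. Over all 17 tested members, 11 were called lower. The background in this comparison was 0.759% of tested genes called in either direction, 0.513% lower and 0.247% higher. The 11 untested members are MT-ATP8 and 10 scarce J01415 rows. The filter used the mean over all libraries, so a scarce row could pass through its shSOX2 values alone, and a row kept in this way is likely to differ. This was so for 4 rows, J01415.21, J01415.1, J01415.16 and J01415.20. The other 13 averaged at least 1 in each line, and 10 of them were called lower. Among these, J01415.18 reached that mean in shTP63 only through its uninduced library (linear RPKM 5.94, against 0 and 0.39 at day 4). Its call is therefore a description too. The 10 abundant rows would have passed on the values of either line.

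Complex I, the NADH dehydrogenase, takes up most of the named members. MT-ND5, an antiporter-like subunit of its membrane arm, was at 10.69, 9.88 and 10.03 in shSOX2 and at 8.55, 7.45 and 7.40 in shTP63. Every shTP63 library was below every shSOX2 library, and the induced libraries differed by -2.53 ± 0.23 (SE, n = 2 against 2, limma adjusted p = 0.0255), which is 5.78-fold between geometric means of RPKM + 1. MT-ND2, another membrane arm subunit, was at 10.03, 9.75 and 9.69 in shSOX2 and at 7.37, 7.43 and 7.43 in shTP63. Its 3 values within each line lay close together, and the induced difference was -2.29 ± 0.23 (limma adjusted p = 0.0255). MT-ND3, a small subunit near the quinone site, was at 9.52, 9.52 and 9.35 in shSOX2 and at 7.87, 7.79 and 7.48 in shTP63. It had the smallest difference of the 8 tested named members, -1.80 ± 0.25 (limma adjusted p = 0.0418).

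MT-ND1, which forms part of the quinone-binding site, was at 11.69, 11.16 and 11.01 in shSOX2 and at 7.81, 8.51 and 9.52 in shTP63. The shTP63 libraries were widely spread here, and the difference of -2.07 ± 0.34 passed narrowly (limma adjusted p = 0.0483). MT-ND6, the only named light strand gene and also a membrane arm subunit, was at 11.43, 10.52 and 10.69 in shSOX2 and at 9.12, 7.97 and 8.18 in shTP63. It was lower by -2.52 ± 0.23 (limma adjusted p = 0.0255), a difference of the same size as that of MT-ND5.

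In complex III, cytochrome b (MT-CYB), its only mitochondrially encoded subunit, was at 10.09, 10.09 and 9.88 in shSOX2 and at 7.35, 7.37 and 7.81 in shTP63. The lines did not overlap, and the induced difference was -2.40 ± 0.26 (limma adjusted p = 0.0255). In complex IV, cytochrome c oxidase, MT-CO2 carries the copper centre that takes electrons from cytochrome c. Its levels were 10.31, 10.69 and 10.31 in shSOX2 and 7.73, 7.81 and 8.51 in shTP63, and the induced difference was -2.34 ± 0.30 (limma adjusted p = 0.0326). MT-CO1, the catalytic subunit of complex IV, was the highest named mRNA in all 3 shSOX2 libraries at 11.91, 11.69 and 11.91. In shTP63 it was at 8.40, 9.12 and 10.52, so the groups did not overlap, but the difference of -1.98 ± 0.41 did not pass (limma adjusted p = 0.0808). The shTP63 day 4 libraries were further apart for MT-CO1 than for any other named mRNA.

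Complex V, the ATP synthase, is represented by MT-ATP8 alone, a small subunit of its membrane part, and this row was scarce and not tested. It was at 0.47, 0.98 and 0 in shSOX2 and at 0, 0 and 0.49 in shTP63, and the lines overlapped. In the GENCODE release 29 annotation the MT-ATP8 gene shares 46 bases with MT-ATP6, and its whole length is 207 bases. The sources used here do not say how reads of overlapping genes were assigned, so the level of MT-ATP8 is uncertain.

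Of the unnamed abundant rows, J01415.4 was at 13.04 in all 3 shSOX2 libraries and at 11.91, 11.43 and 11.43 in shTP63. It was called, with a difference of -1.61 ± 0.16 (limma adjusted p = 0.0255). Its day 4 values were equal within each line, because it held the same rank in both libraries. limma averaged this spread of 0 with the trend over genes, which gave J01415.4 the smallest SE of the 17 members. J01415.24 was at 13.36 in all 3 shSOX2 libraries and at 11.01, 10.52 and 11.91 in shTP63. The groups did not overlap, but the difference of -2.15 ± 0.40 did not pass (limma adjusted p = 0.0663).

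**Figure D3:**
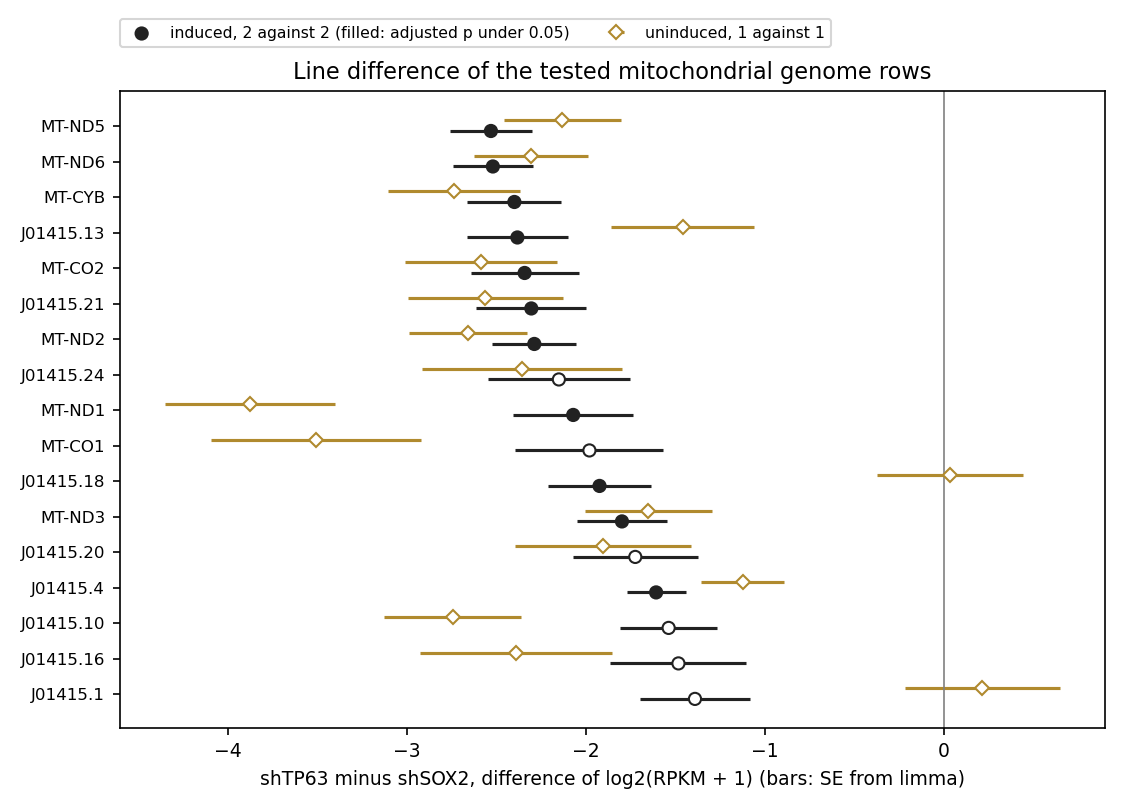
Difference shTP63 minus shSOX2 in log2(RPKM + 1) for the 17 tested mitochondrial genome rows, with bars of 1 SE from limma. Circles are the induced libraries, filled where the adjusted p is under 0.05, and diamonds are the uninduced libraries. All induced differences lie between -2.53 and -1.39, and uninduced differences lie between -3.88 and 0.22.

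The remaining 17 rows, all J01415 numbers, were low, and 7 of them were tested. J01415.13 was the highest, at 3.08, 4.11 and 3.63 in shSOX2 and 1.62, 1.60 and 1.37 in shTP63, and it was called with a difference of -2.38 ± 0.28 (limma adjusted p = 0.0326). J01415.21 was at 2.56, 2.30 and 2.88 against 0, 0.57 and 0, and was called too (-2.31 ± 0.31, limma adjusted p = 0.0352). It passed the filter through shSOX2 alone, so this call is a description. J01415.18 was at 2.76, 2.40 and 1.92 in shSOX2 and at 2.79, 0 and 0.48 in shTP63. It was called after induction (-1.92 ± 0.29, limma adjusted p = 0.0465), whereas its uninduced values were nearly equal, so that the lines overlapped. In shTP63 it reached the filter's mean through the uninduced library alone, so this call is a description. The other 4 tested rows, J01415.10, J01415.1, J01415.16 and J01415.20, had differences of -1.73 to -1.39 and did not pass. J01415.20 was listed at 0 in all 3 shTP63 libraries. None of the 10 untested rows exceeded 1.64, J01415.15 being the highest and J01415.2 the lowest in mean level. The number of these 17 rows above 0 was 17, 13 and 14 in shSOX2 and 3, 10 and 3 in shTP63.

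All 10 abundant rows were separated, with each shTP63 library below each shSOX2 library. Of the 13 rows that averaged at least 1 in each line, 12 were separated in this way and 13 had an unadjusted p under 0.05 on the lower side. These 13 include J01415.18, which reached that mean in shTP63 through the uninduced library alone. The counts over all 17 tested members, which include the 4 rows kept through shSOX2 alone, are descriptions. All 17 had an unadjusted p under 0.05 on the lower side, against 12.5% of tested genes. For 15 of the 17 (88.2%) all 3 shTP63 libraries lay below all 3 shSOX2 libraries, against 11.3% of tested genes, and for 0 the reverse held, against 12.2%. The exceptions were J01415.18 and J01415.1. Over all 28 members, tested or not, 19 were separated in this direction and 0 in the other. The untested J01415 rows among them did not exceed 1.64 in any library. The share over all rows of the table was not computed, so this count is a description. With the uninduced shTP63 library left out, 17 of the 17 were separated, against 19.1% of tested genes. The median difference over the 17 was -2.07 and that of the 8 tested named mRNAs -2.32, beside 0.05 over all tested genes.

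With either shSOX2 day 4 library left out, all 17 differences kept their sign. Such a fit takes its spread from the shTP63 day 4 pair alone, so its calls are not read here. Without any filter on low values 0 of 28 members were called.

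The members were also low in the uninduced shTP63 library, where each line has 1 library and no replicate. With the spread of the day 4 pairs, limma called 0 genes at an adjusted p under 0.05 in this comparison (0.0%), and 15 of the 17 members had an unadjusted p under 0.05 on the lower side, against 2.93% of tested genes. MT-ND1 differed by -3.88 ± 0.48 (limma adjusted p = 0.0889), MT-CO1 by -3.51 ± 0.59 (0.215) and MT-CYB by -2.74 ± 0.37 (0.119). J01415.18 and J01415.1 were the exceptions, at 0.03 and 0.22. The 17 include the 4 rows kept through shSOX2 alone, so the count of 15 is a description. The uninduced shTP63 library also had 56 genes of the tested set at 0. All 10 abundant rows were lower in it than in the uninduced shSOX2 library. Leaving out 1 shTP63 day 4 library leaves the spread to the shSOX2 day 4 pair alone, in which J01415.4 and J01415.24 did not differ. Calls made in that way are not read here. A difference between the lines and one between the 2 uninduced libraries cannot be told apart.

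The question of what 4 days of induction did within each line gave no called member. In shSOX2, limma called 0 of 10536 genes (0.0%), and 2 of the 17 members had an unadjusted p under 0.05, both lower, against 4.26% of tested genes on that side. In shTP63, 2 genes were called (0.019%), none of them a member. The unadjusted p was under 0.05 for 8 members, 5 lower and 3 higher, against 7.24% and 7.33% of tested genes. Among these 8 were the scarce rows J01415.1, J01415.18 and J01415.10. J01415.1 passed the filter through shSOX2 alone. J01415.18 and J01415.10 were at 2.79 and 0 in the lone uninduced shTP63 library. J01415.4, also among them, had equal day 4 values within each line. The count of 8 is therefore a description. As the mean of both lines, 6 genes were called (0.0569%) and no member.

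MT-ND5 and MT-ND6 were the only named members below their own day 0 in all 4 day 4 libraries. MT-ND6 was 0.91 and 0.74 lower in the shSOX2 libraries number 2 and 1 and 1.14 and 0.93 lower in those of shTP63, and its mean response was -0.93 ± 0.20 (limma adjusted p = 0.0848). MT-ND5 was 0.80 and 0.66 lower in shSOX2 and 1.11 and 1.15 lower in shTP63, with a mean response of -0.93 ± 0.20 (limma adjusted p = 0.0878). Neither passed with all libraries. Fits without 1 shTP63 day 4 library take the spread from the shSOX2 day 4 pair alone, so their calls are not read. Over the alternatives the mean response ranged from -1.03 to -0.88 for MT-ND6 and from -0.97 to -0.89 for MT-ND5. These genes are neighbours on opposite strands with their 3′ ends facing each other. No strand-specific step is stated in the protocol, so reads of one may have been counted for the other, which was not tested. MT-ND6 was above MT-ND5 by 0.53 to 0.79 in all 6 libraries. J01415.18 was also below its day 0 in all 4 libraries, which makes 3 of 17 members (17.6%), against 23.0% of tested genes. J01415.10 was above its day 0 in all 4, which makes 1 of 17 (5.88%), against 19.4%.

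MT-ND1 and MT-CO1 had values on different sides of day 0 in the lines. MT-ND1 was 0.52 and 0.68 lower in the shSOX2 libraries number 2 and 1 and 0.70 and 1.71 higher in those of shTP63. MT-CO1 was 0.23 lower and 0.00 apart in shSOX2 and 0.72 and 2.11 higher in shTP63. The difference of the responses was 1.81 ± 0.58 for MT-ND1 (unadjusted p = 0.0157, limma adjusted p = 0.995) and 1.53 ± 0.72 for MT-CO1 (0.995), and neither passed. MT-ND1 and MT-ND2 were the 2 of 17 members (11.8%) with both shSOX2 libraries below and both shTP63 libraries above their own day 0, against 8.13% of tested genes. Across all tested genes limma called 0 (0.0%) for this difference, with 4.55% at an unadjusted p under 0.05. The latter included 4 of the 17 members, namely MT-ND1 and the scarce rows J01415.1, J01415.10 and J01415.18. J01415.1 passed the filter through shSOX2 alone. J01415.10 and J01415.18 were at 0 and 2.79 in the lone uninduced shTP63 library. The count of 4 is therefore a description. Over the alternatives the difference of the responses ranged from 1.30 to 2.31 for MT-ND1 and from 0.83 to 2.225 for MT-CO1. MT-CO2, MT-CYB, MT-ND2 and MT-ND3 stayed within 0.78 of their own day 0 in every library.

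**Figure D4:**
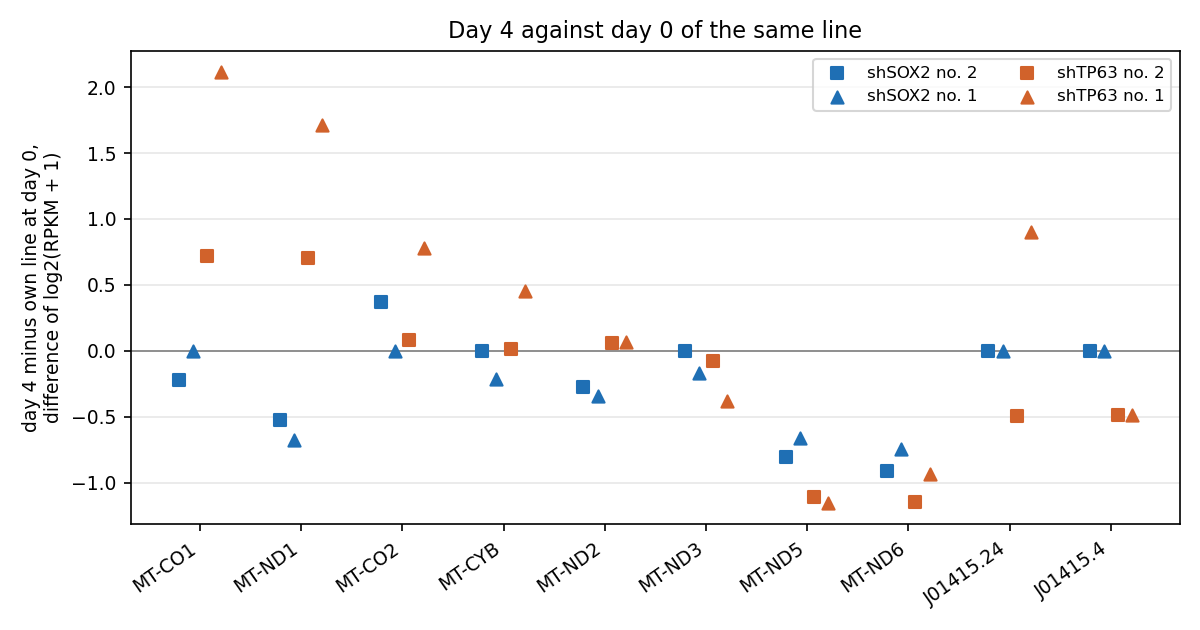
Level at day 4 minus level of the same line at day 0, in log2(RPKM + 1), for the 10 abundant rows. Blue is shSOX2 and orange shTP63, with squares for library number 2 and triangles for number 1. All 4 points of MT-ND5 and MT-ND6 lie below 0, from -1.15 to -0.66, whereas MT-CO1 and MT-ND1 lie above 0 only in shTP63.

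The light strand was compared with the heavy strand within each library, through MT-ND6 and the median of the 8 named heavy strand mRNAs. The light strand thus rests on 1 row. No strand-specific step is stated, so heavy strand reads may have been counted for MT-ND6, which was not tested. MT-ND6 is known as a message with little or no poly(A) tail. The level of its row was above the heavy strand median in all 6 libraries, by 1.22, 0.53 and 0.73 in shSOX2 and by 1.35, 0.36 and 0.54 in shTP63. The excess was larger at day 0 than in either day 4 library of the same line, and the ranges of the lines overlapped. Without MT-ATP8, the lowest of the 8, the excess was 0.19 to 1.31. Among the 9 named mRNAs MT-ND6 ranked 3 or 4 in 5 libraries and highest in the uninduced shTP63 library.

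A comparison of rRNA with mRNA by name could not be made, because no row used here carries an rRNA name. The unnamed rows J01415.24 and J01415.4 were above the named mRNAs throughout. J01415.24 exceeded the median of the 9 named mRNAs by 3.05, 3.27 and 3.34 in shSOX2 and by 3.20, 2.73 and 4.11 in shTP63, and J01415.4 exceeded it by 2.72, 2.94 and 3.01 in shSOX2 and by 4.11, 3.64 and 3.62 in shTP63. In shSOX2 these rows hold the top 2 ranks, whose values quantile normalization fixes, so their excess there is a ceiling and is not compared between the lines. In shTP63, where they lie below the top 2 ranks, J01415.24 was below J01415.4 by 0.90 at day 0 and by 0.91 in day 4 number 2 and above it by 0.48 in day 4 number 1.

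Nuclear copies of mitochondrial sequence, which can share reads with the members, were examined because they were counted in rows of their own. Of 151 such rows in the table, 30 were above 0 in any library and 2 were tested. MTND2P28 is a near copy of MT-ND2, with 1025 of 1042 aligned bases identical (98.4%), and MTND1P23 is a near copy of part of MT-ND1, with 349 of 352 identical (99.1%). The longest identical stretches were 266 and 158 bases, so a short read there has no base that tells the copy from the gene. The 90-base windows with the most differing bases are printed here from GENCODE release 29, with the differing bases in capitals. They start at position 433 of both MTND2P28 and MT-ND2, and at position 124 of MTND1P23 and 709 of MT-ND1.
MTND2P28: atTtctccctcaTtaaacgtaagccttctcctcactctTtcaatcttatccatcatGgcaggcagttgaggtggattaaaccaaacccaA
MT-ND2: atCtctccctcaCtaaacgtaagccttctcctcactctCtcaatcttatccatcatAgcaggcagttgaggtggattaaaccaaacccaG
MTND1P23: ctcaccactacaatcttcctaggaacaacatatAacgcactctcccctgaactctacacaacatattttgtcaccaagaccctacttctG
MT-ND1: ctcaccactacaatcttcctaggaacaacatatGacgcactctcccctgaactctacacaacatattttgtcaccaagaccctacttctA
MTND2P28 was at 6.50, 6.54 and 6.40 in shSOX2 and at 3.99, 4.06 and 3.89 in shTP63, and was called after induction (-2.50 ± 0.28, limma adjusted p = 0.0255). In linear RPKM it was 8.02% to 10.7% of MT-ND2 in all 6 libraries. MTND1P23 was at 5.26, 5.36 and 4.70 against 2.99, 2.69 and 3.08 (-2.15 ± 0.33, limma adjusted p = 0.0467) and was 1.02% to 3.12% of MT-ND1. Values of these genes and copies are therefore uncertain to the extent that reads were shared. The next rows by mean level, MTND6P4 and MTRNR2L1, did not exceed 0.81.

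Nuclear genes of the mitochondrial gene expression machinery were tested in the same fit. After induction, 0 of 20 tested genes of mitochondrial transcription and replication, 0 of 33 of RNA processing and decay, 0 of 18 translation factors, 0 of 73 mitoribosomal proteins and 0 of 22 proteostasis and stress genes were called. With 0.759% of all tested genes called, a count of 0 in lists of this size is near the background. Their median differences were -0.06, 0.07, -0.15, 0.16 and -0.22. TFAM, which packages the mitochondrial genome and activates its promoters, was at 2.39, 2.05 and 1.57 in shSOX2 and at 2.59, 2.39 and 2.12 in shTP63, a difference of 0.44 ± 0.28 after induction (limma adjusted p = 0.368). POLRMT was at 4.69, 4.81 and 4.65 against 4.39, 4.33 and 4.10 (-0.52 ± 0.28, adjusted p = 0.30). LRPPRC differed by 0.23 ± 0.27, SLIRP by -0.16 ± 0.30, PNPT1 by -0.46 ± 0.25, SUPV3L1 by 0.37 ± 0.31, MTPAP by -0.13 ± 0.27, TFB2M by 0.12 ± 0.30 and the elongation factor TUFM by -0.49 ± 0.28, and none of these passed. TEFM, at most 1.06 in any library, was not tested.

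Nuclear-encoded subunits of the same complexes had medians above 0, beside 0.05 over all tested genes. These lists were taken by gene name, with ATP5S and ATP5SL kept under complex V, so a list may hold genes that are not subunits. The induced median was 0.30 for 35 subunits of complex I, 0.64 for 9 of complex III, 0.27 for 10 of complex IV and 0.43 for 17 of complex V, with 0 called in each, near the background of 0.759%. Before induction, with 1 library a line, the medians were 0.11, 0.29, 0.01 and -0.02. Of the 35 complex I subunits, 28 had a difference above 0, as did 65 of 82 cytosolic ribosomal protein genes and 5663 of all 10536 tested genes. All 5 tested mitochondrially encoded subunits of complex I were below 0. All 3 shTP63 libraries were above all 3 shSOX2 libraries for 14 of the 35 complex I subunits (40.0%), 4 of the 9 complex III subunits (44.4%), 1 of the 10 complex IV subunits (10.0%) and 3 of the 17 complex V subunits (17.6%), against 12.2% of tested genes. Cytosolic ribosomal protein mRNAs, taken as other abundant messages, had a median of 0.26 over 82 genes and 0 called.

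**Figure D5:**
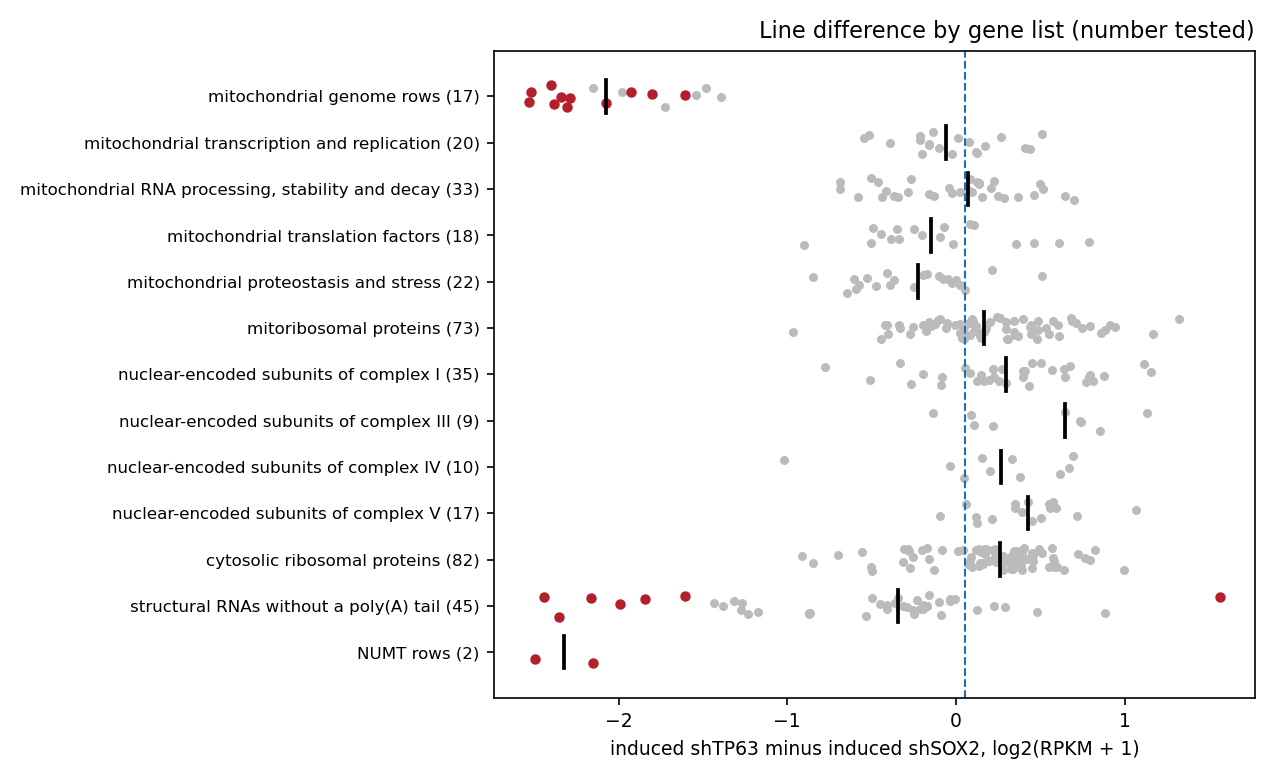
Difference induced shTP63 minus induced shSOX2 in log2(RPKM + 1) for each tested gene of each list, with the number tested in parentheses; vertical position within a list is arbitrary. Red points have an adjusted p under 0.05, black bars are list medians and the dashed line is the median of all tested genes, 0.05. The mitochondrial genome rows lie between -2.53 and -1.39, while the medians of the nuclear lists of mitochondrial function lie between -0.22 and 0.64.

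RNAs that carry no poly(A) tail are given here as values beside the members. The 604 rows of small nuclear, nucleolar and other structural RNAs held 3.49%, 5.80% and 5.72% of the summed linear RPKM in shSOX2 and 13.8%, 12.9% and 9.33% in shTP63. Most of this sum lies in a few rows. RN7SK, an RNA that sequesters a transcription elongation factor, was at 11.16, 11.91 and 11.69 in shSOX2 and held the highest value of the table, 13.36, in all 3 shTP63 libraries (1.57 ± 0.17 after induction, limma adjusted p = 0.0255). RN7SL1, the RNA of the signal recognition particle, was at 10.52, 11.01 and 11.43 against 13.04, 13.04 and 11.16 and did not pass. Of 45 tested rows of this list 6 were called lower and 1, RN7SK, higher, against 0.513% and 0.247% of all tested genes. SNORA59B, 1 of the 6, was at 1.55, 2.47 and 2.96 in shSOX2 and at 0, 1.16 and 1.05 in shTP63. It passed the filter through shSOX2 alone, so its call is a description. How many other rows of the list passed in this way was not counted. The summed share and the single rows pointed different ways, with 39 of the 45 differences below 0. The rows include families of like-named genes, such as RNU1-1 to RNU1-9, SNORD3A with SNORD3C and SNORA59A with SNORA59B. The 39 are therefore not separate RNAs. SNORD3A, a nucleolar RNA of rRNA processing, was at 9.88, 10.03 and 10.52 against 7.46, 7.83 and 7.83 (-2.44 ± 0.26, adjusted p = 0.0255). The list's median was -0.35. RN7SK, RN7SL1 and SNORD3A were chosen after their values were seen, and the last 2 have near-identical copies in the genome, so their levels are uncertain. The part of tail capture or of RNA composition in the line difference of the members was not tested.

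The nuclear lists differed in their direction at day 4. All 4 day 4 libraries were below their own day 0 for 43 of 73 mitoribosomal proteins (58.9%), 17 of 33 RNA processing genes (51.5%) and 9 of 20 transcription and replication genes (45.0%), against 23.0% of tested genes and 3 of 17 members. The mean response was above 0 for 10 of 10 complex IV and 25 of 35 complex I subunits, against 5091 of all 10536 tested genes. All 4 day 4 libraries were above their own day 0 for 4 of the former (40.0%) and 10 of the latter (28.6%), against 19.4% of tested genes. In the mean of each line, translation factors had 7 below and 11 above 0 in shTP63 and 14 below and 4 above 0 in shSOX2. Over all tested genes 5261 were below and 5273 above 0 in shTP63, and 5691 below and 4842 above 0 in shSOX2. SLIRP was at 4.30, 3.20 and 3.62 in shSOX2 and at 3.80, 3.45 and 3.06 in shTP63, with a mean response of -0.72 ± 0.26 (limma adjusted p = 0.186). Among the mitoribosomal proteins MRPS11 (-0.89 ± 0.24, adjusted p = 0.123) and MRPL20 (-0.86 ± 0.23, adjusted p = 0.12) had the smallest p, and neither passed. In the complex I list NDUFA4, a subunit now assigned to complex IV, was higher in all 4 day 4 libraries (4.31, 4.86 and 5.05 in shSOX2, 3.02, 4.69 and 5.06 in shTP63), with a mean response of 1.25 ± 0.25 that did not pass (limma adjusted p = 0.0807).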

How the data were processed

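Poly(A) RNA was bound to oligo(dT) beads, fragmented, copied with random primers and sequenced on an Illumina instrument, per the labels' protocols. Reads were placed on hg19, per the submitters' processing notes, and the sources used here name no aligner, counter or annotation. The table deposited by the authors calls its values RPKM, but they were read, from the values themselves, as log2 values of RPKM + 1, quantile-normalized between libraries. Over the 26795 genes with a known length, base e would make the read share 1.34 to 1.89 times the library. Base 2 makes it 0.151 to 0.156 and was taken. After quantile normalization the values need not sum to a library's own reads, so this check is approximate. The values were tested as deposited, without a further log. Depth is unknown. No row name was repeated.

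The 10536 genes whose linear RPKM averaged 1 or more were tested with limma 3.58.1 (R 4.3.3): 4 group means, mean-variance trend, 2 residual and 5.53 median prior degrees of freedom, two-sided p, Benjamini-Hochberg over all of them. The spread comes from the day 4 pairs and was applied to the lone day 0 libraries. The code was tested on simulated data. Errors are standard errors from limma. Members and gene lists were chosen with earlier results of these data known. Named members are all MT- rows and the J01415 rows that passed the filter; of nuclear lists, 10 regulators, at most 3 genes by unadjusted p in the mean response, and the 4 highest nuclear copies. Names ending in P and a number were left out of the NDUF and ATP5 lists. The design foresaw 13 mRNAs and both rRNAs; 9 named mRNAs were used. Gene order, strand and sequence come from GENCODE release 29 (GRCh38), another build, so no coordinates are printed. Alternatives were other filters, pseudocounts and scalings, no trend, a replicate block and left-out libraries.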

Additional observations from a re-analysis of the deposited data

How the results depend on the processing

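The count of members called lower in the induced comparison was 11 of 17. It was 0 of 28 without a filter on low values, 8 at a mean of at least 5 or with a pseudocount of 5, 10 with median-ratio scaling or without a trend, and 12 for the line difference over both days, an alternative chosen after seeing the data. With the replicate number as a block it was 6. The replicate numbers were not shown to pair the samples: the deviations of same-numbered day 4 libraries correlated at -0.0738 between lines, and under the block no other count of called members changed. Leaving out 1 day 4 library gave 0 to 13. The median difference was -2.07, and -2.29 at a mean of at least 5, -1.78 with a pseudocount of 5, -2.12 with median-ratio scaling, -2.26 over both days and -2.27 to -1.77 with 1 library left out. Before induction it was -2.36, or -1.64 with a pseudocount of 5. With 1 day 4 library left out, the spread came from the day 4 pair of the other line alone. Counts of calls under left-out libraries are therefore not read as support. The cause was not tested.

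For day 4 against day 0 in shSOX2 the median change was -0.11, and -0.038 with median-ratio scaling, -0.29 with the replicate block, 1.02 with both day 0 libraries as 1 control group and -0.23 to 0.00 with 1 library left out. In shTP63 it was 0.06, and -0.999 with both day 0 libraries as control, where 1 member was called, and 0.00 to 0.064 with 1 library left out, where 0 to 4 were called. For the mean of both lines it was -0.09, and 0.063 at a mean of at least 5, -0.031 with a pseudocount of 5 and -0.10 to 0.10 with 1 library left out, where 0 to 5 were called. For the difference of responses it was 0.21, and 0.061 with a pseudocount of 5, 0.15 with median-ratio scaling and -0.036 to 0.21 with 1 library left out, where 0 to 2 were called. Of 297 values for single members under alternatives 46 lost their call, 16 gained one and none changed sign. The rRNA alternatives were not run, since no rRNA row was named. With both day 0 libraries as control, the values 1.02 and -0.999 and the 1 call carry the difference between those libraries (median -2.36). They are not read as a day response.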
